A study of Mus musculus with 10 samples.

Results

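Wnt signalling was followed through 10 genes in prostate cells labelled as knockouts of Arid1a and in their controls. Arid1a encodes a DNA-binding subunit of the SWI/SNF chromatin remodelling complex. The 10 are the ligands Wnt4, Wnt5a, Wnt7b and Wnt10a, the R-spondin receptors Lgr4 and Lgr5, the secreted Wnt inhibitor Sfrp1, the Dickkopf family member Dkk3, beta-catenin itself (Ctnnb1) and the pathway's feedback target Axin2. They are 10 of the 48897 rows of each expression table and were found by gene symbol. The genes were selected on their measured difference between Arid1a knockout (KO) and control libraries in these same tables, so those differences are given as a description, with the standard error of the estimate and with no p-value. A further 102 genes of the pathway, on 9 lists that leave out the 10, were put to a test where their level allowed it. These lists were drawn up with earlier results of these data known, so their counts give no independent evidence for the differences of the 10.

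Wnt ligands are secreted, lipid-modified proteins that bind Frizzled receptors. In the canonical branch, binding together with the co-receptors Lrp5 and Lrp6 stops a destruction complex built on Axin and Apc from degrading beta-catenin, which then enters the nucleus and joins TCF/LEF factors at target genes. Other ligands, of which Wnt5a is the best known, act mainly through branches that do not need beta-catenin. Lgr receptors and R-spondins protect Frizzled from removal at the membrane, secreted inhibitors capture ligands or co-receptors, and in the prostate the pathway takes part in budding, in ductal growth and in the upkeep of epithelial progenitors.

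RNA-seq was measured in 10 mouse libraries. Epithelial cells sorted as EpCAM+ and CD45- came from the prostates of 3-month-old C57BL/6 mice, with 3 control libraries (A, B and C) and 3 that carry Arid1aPC-/- in addition. All 6 libraries share a further engineered deletion, made like that of Arid1a by a Cre recombinase under the Probasin promoter, which is active in prostate epithelial cells. The control group is therefore not wild type, and the deletions are limited to cells that used that promoter. The remaining 4 libraries were from Myc-CaP, a prostate cancer cell line of FVB mice driven by a Myc transgene, with 2 libraries of an empty vector (EV) line and 2 of an Arid1a KO line made by CRISPR with lentiviral guides and drug selection. The study's methods give 3 mice for the sorted epithelium, which matches 3 libraries per group, but the labels tie no library to an animal. For Myc-CaP no source says that the libraries of a group came from separate cultures, so errors and p-values there measure the spread between these libraries, which may be technical. All 10 libraries carry the same growth text, on culture of Myc-CaP, and the study also describes RNA-seq of grafted Myc-CaP cells, so the growth of the Myc-CaP libraries is not settled by the labels.

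The epithelium was deposited as RPKM (reads relative to gene length and library depth) and Myc-CaP as TPM (reads divided by gene length and then brought to one total per library). From the steps between low values and GENCODE gene lengths, the depth of the epithelium libraries was estimated at 28950000 to 36200000 mapped reads, an estimate only, since between 26% and 30.0% of low values fell within 0.05 of a whole read. TPM keeps no absolute depth, but its steps put 1 TPM at about 7.6 to 8.8 reads per kilobase. There 24.8% to 26.2% of low values fell within 0.05 of a whole read, so read numbers for Myc-CaP are estimates too. Arid1a itself was 25.4 ± 3.13 RPKM in control epithelium and 30.2 ± 1.23 RPKM (SD, n = 3 each) in the libraries labelled KO, so its level was not reduced there. The reads over the deleted exons alone were not analysed here, and the epithelium groups stand on their labels: KO epithelium means the 3 libraries labelled Arid1a KO in all that follows, directions included. In Myc-CaP, Arid1a was 60.7 ± 0.355 TPM with EV and 39.9 ± 0.581 TPM in KO (SD, n = 2 each), a log2 difference of -0.59 (limma, Benjamini-Hochberg adjusted p = 0.0102).

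Differences are on the log2(value + 1) scale, KO minus control, with the value in RPKM or TPM; this scale understates the change of low genes. A gene was tested where its mean over the libraries of its table reached 0.5, and called at an adjusted p under 0.05. A gene below that limit in its KO or control group could pass through the other group alone. Its call then rests on the group where it was high. In the epithelium 57.1% of the 16275 genes tested were called, 27.5% higher and 29.6% lower in KO, and in 66.7% of genes the 3 KO libraries did not overlap the 3 controls. In Myc-CaP 6.43% of 13974 genes were called, 4.54% higher and 1.89% lower, and in 51.5% the 2 KO libraries did not overlap the 2 EV libraries. With this many genes moving in the epithelium, a call or a gap between groups is the common outcome for any gene there. The epithelium had a median log2 difference over all tested genes of -0.03, which became 0.11 when every library was scaled to the same sum. On that scale 64.9% of the called genes were higher in KO, against 48.1% on the deposited scale.

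The start regions of Axin2, Wnt4 and Lgr4 are shown because Axin2 is the pathway's most used reporter gene, Wnt4 is the most abundant Wnt ligand of the epithelium, and Lgr4 was higher in KO epithelium where most of the 10 genes were lower. RefSeq windows of GRCm38.p6 were at hand for 4 of the 10 genes, and the stretches below end where the annotated transcript begins. They were searched on both strands for 4 TCF/LEF motifs, spelled CTTTGAA with its variant CTTTGAT, as well as CTTTGTA with its variant CTTTGTT, which share their first 5 bases and would be printed in capitals.
Axin2, chr11:108920099-108920348, + strand: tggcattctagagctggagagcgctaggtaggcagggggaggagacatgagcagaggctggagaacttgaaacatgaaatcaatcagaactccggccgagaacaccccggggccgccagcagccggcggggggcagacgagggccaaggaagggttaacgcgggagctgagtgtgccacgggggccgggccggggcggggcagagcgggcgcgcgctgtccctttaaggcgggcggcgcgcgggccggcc
Wnt4, chr4:137277385-137277488, + strand: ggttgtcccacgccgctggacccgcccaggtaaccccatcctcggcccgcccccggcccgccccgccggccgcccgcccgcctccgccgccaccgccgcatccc
Lgr4, chr2:109917397-109917646, + strand: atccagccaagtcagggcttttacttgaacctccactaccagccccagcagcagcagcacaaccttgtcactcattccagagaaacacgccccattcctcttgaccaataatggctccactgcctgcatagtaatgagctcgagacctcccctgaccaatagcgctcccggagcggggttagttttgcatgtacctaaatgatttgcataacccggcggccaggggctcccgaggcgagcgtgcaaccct
None of the 4 motifs was found in the 250 bases searched for these genes or for Ctnnb1. The windows of Ctnnb1 lay inside its annotated gene, so none of its searched bases stand before the annotated start. Of all 32851 windows of the same length, 14.8% held at least 1 of the motifs. The absence of a match says only that these letters do not stand in these windows.

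Wnt4, a ligand known from mammary side branching and kidney tubule formation (chr4:137277489-137299726, GRCm38), led the ligands of the epithelium. In the order A, B and C it measured 44.4, 54.1 and 44.7 RPKM in the controls and 24.1, 21.0 and 27.4 RPKM in KO. The lowest control lay above the highest KO library. The mean was 1.97-fold lower in KO, with a log2 difference of -0.95 ± 0.11 (SE). These values rest on many reads, an estimated 2628 to 8219 per library.

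Wnt5a, the main ligand of the branches without beta-catenin (chr14:28504750-28527448), measured 3.49, 2.63 and 3.41 RPKM in the controls and 1.30, 1.72 and 1.75 RPKM in KO. The groups did not overlap, the KO mean was 2.0-fold lower and the log2 difference was -0.69 ± 0.12. Wnt10a, a canonical ligand known from skin, hair and teeth (chr1:74791516-74804179), measured 2.87, 2.57 and 2.27 RPKM in the controls and 0.419, 0.941 and 1.01 RPKM in KO. It had a log2 difference of -1.01 ± 0.15 and a 3.26-fold lower mean, on an estimated 175 to 229 reads per control and 32 to 72 reads per KO library.

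Wnt7b, a ligand of epithelia that acts through beta-catenin in lung and kidney (chr15:85535437-85582473), differed least of the 4. It measured 14.8, 16.2 and 13.8 RPKM in the controls and 11.7, 11.2 and 13.5 RPKM in KO, so control C and KO library C lay close together. The log2 difference was -0.28 ± 0.09, and -0.12 when libraries were scaled to the same sum. All 4 ligands were thus lower in KO epithelium, by 1.23-fold for Wnt7b up to 3.26-fold for Wnt10a.

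**Figure D1:**
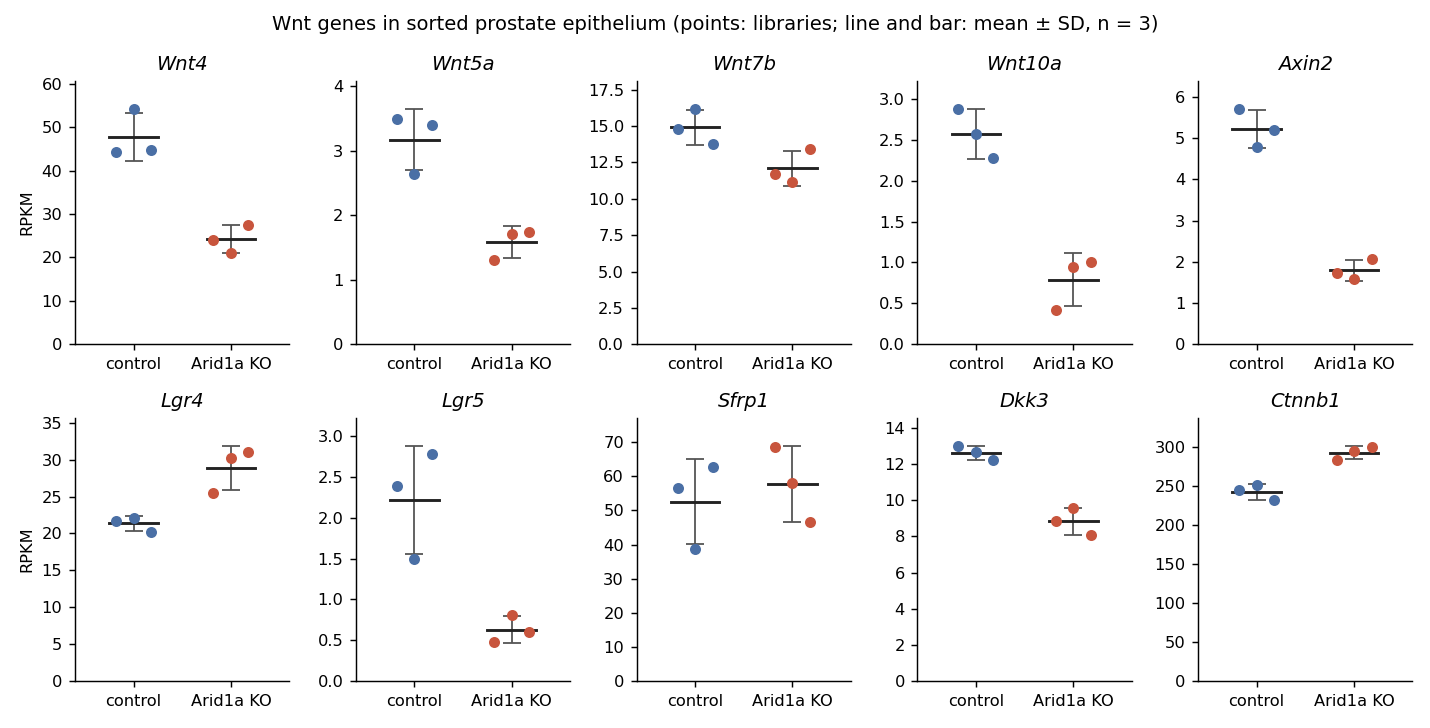
Level in RPKM (y axis, from 0, a separate scale per panel) of the 10 genes in sorted prostate epithelium, with 3 control (blue) and 3 Arid1a KO (red) libraries as points, the mean as a line and the SD as a bar. The groups are apart in 9 panels, with KO below control in 7 and above it for Lgr4 and Ctnnb1, and they overlap for Sfrp1.

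Summed over the 19 Wnt ligand genes, the epithelium held 85.8 to 93.8 RPKM in the controls and 60.0 to 65.1 RPKM in KO. Wnt4 made up 51.4% to 57.7% of that sum in the controls and 33.6% to 42.1% in KO. The share of Wnt7b was 15.8% to 17.3% in the controls and 17.8% to 20.7% in KO, so on this measure it was not lower. Within a library, Wnt4 stood at 2.99 to 3.35 times the level of Wnt7b in the controls and 1.88 to 2.06 times in KO, a ratio that scaling cannot move.

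Other ligands changed in both directions. Of the 15 other ligand genes, 6 were tested and all 6 were called, 3 in each direction (limma, adjusted p from 1.87e-05 to 0.00107). Over all genes 57.1% were called. Wnt16 reached the limit for testing through KO alone, and Wnt6 through the controls alone. Wnt16, a ligand of bone and stroma, stood at 0.0583, 0.10 and 0.0430 RPKM in the controls and 3.83, 5.93 and 4.14 RPKM in KO, which took it from 0.0748% to 7.40% of the Wnt sum on average. Wnt11 (log2 difference 0.81, adjusted p = 0.00107) and Wnt9a (0.79, adjusted p = 0.000956) also rose, and their mean shares went from 5.29% to 14.3% and from 3.80% to 10.5%. Wnt6 (-1.54, adjusted p = 1.87e-05), Wnt2 (-1.27, adjusted p = 8.62e-05) and Wnt5b (-1.07, adjusted p = 0.000264) fell. The other 9 ligand genes had means under 0.5 RPKM and were not tested.

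**Figure D2:**
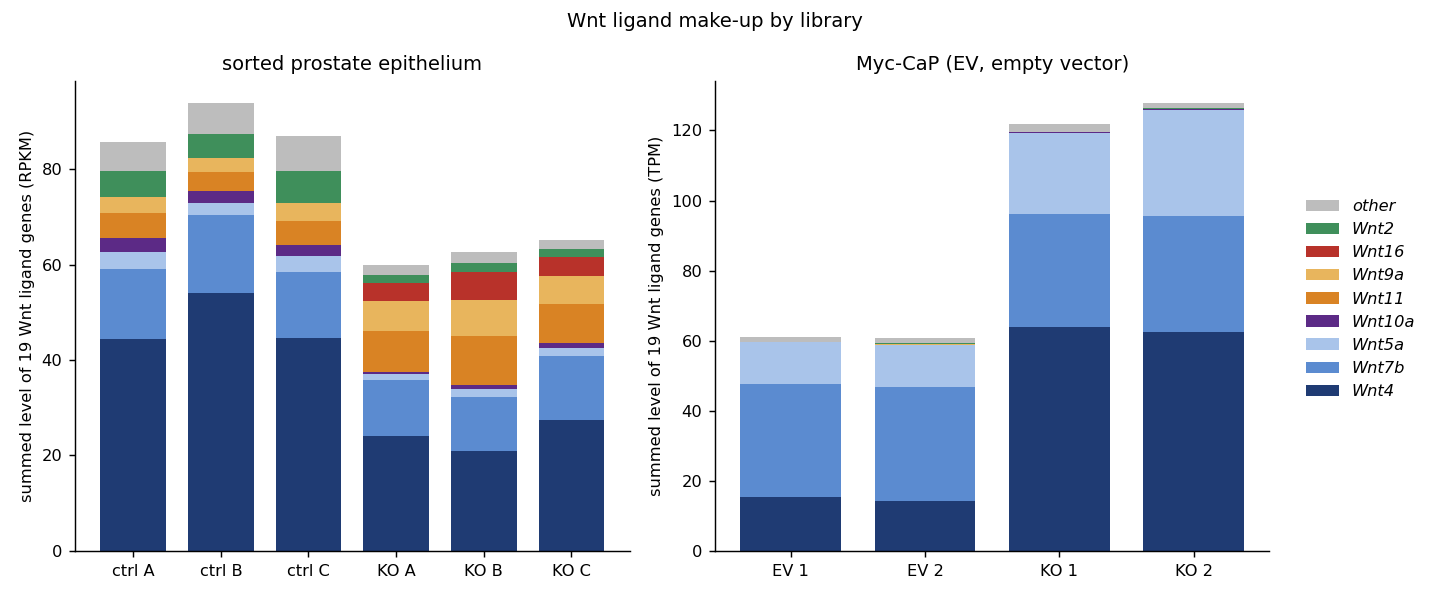
Stacked level of 19 Wnt ligand genes (y axis, RPKM for epithelium on the left, TPM for Myc-CaP on the right) in each library, with colours for 8 ligands and grey for the rest. In epithelium the KO bars are shorter (60.0 to 65.1 against 85.8 to 93.8 RPKM) with a smaller Wnt4 segment and a Wnt16 segment hardly seen in the controls, and in Myc-CaP the KO bars are taller (122 to 128 against about 61 TPM).

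The receptors of R-spondins, of which Lgr5 marks stem cells in several epithelia, moved apart. Lgr4 (chr2:109917647-110014257) measured 21.7, 22.1 and 20.3 RPKM in the controls and 25.4, 30.2 and 31.0 RPKM in KO, a log2 difference of 0.41 ± 0.09, with every KO library above every control. Lgr5 (chr10:115450311-115587780), itself a target of the pathway, measured 2.39, 1.5 and 2.78 RPKM in the controls and 0.481, 0.805 and 0.604 RPKM in KO. It was 3.53-fold lower in the mean, with a log2 difference of -0.97 ± 0.16, and control B, the lowest control, still lay above all KO libraries.

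The ratio of Lgr4 to Lgr5 within a library was 7.27 to 14.8 in the controls and 37.5 to 52.8 in KO. Lgr6, the third receptor of the family and no member of the 10, was at 0.0120 to 0.0371 RPKM in the controls. In KO it was at 1.5 to 2.11 RPKM (log2 difference 1.47, limma adjusted p = 5.15e-05), and it reached the limit for testing through KO alone. Its mean share of the summed Lgr level went from 0.0908% to 5.84%, while that of Lgr5 went from 9.44% to 2.0%, and Lgr4 held 87.8% to 93.6% in every library. Among the ligands of these receptors, Rspo3 (-1.17, adjusted p = 0.000287) and Rspo1 (-0.80, adjusted p = 0.0146) fell. So did Rnf43 (-0.93, adjusted p = 0.00314), a ligase that removes Frizzled from the membrane and the most abundant gene of the R-spondin list. The call of Rspo1 was lost when a trend with gene length was removed. Znrf3, the partner ligase, did not pass the test (-0.07, adjusted p = 0.595).

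Sfrp1, a secreted protein that captures Wnt ligands (chr8:23411502-23449632), was the most abundant of the 10 after Ctnnb1 and did not separate the groups. It measured 56.6, 38.6 and 62.7 RPKM in the controls and 68.7, 58.2 and 46.5 RPKM in KO, a log2 difference of 0.15 ± 0.20. Without control B the difference was -0.06. Dkk3 (chr7:112116017-112159057), a secreted protein of the Dickkopf family whose effect on Wnt signalling depends on the cell, measured 13.0, 12.6 and 12.2 RPKM in the controls and 8.88, 9.55 and 8.06 RPKM in KO. The groups were well apart, with a log2 difference of -0.47 ± 0.08 and a 1.43-fold lower mean.

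Of the 15 other inhibitors, 10 were tested, 7 fell and 2 rose, a called share of 90% beside 57.1% over all genes. Sfrp2, counted among the 7, had groups that overlapped and kept its call in 7 of 14 alternatives. Their median log2 difference was -0.89 beside -0.03 over all genes. Wif1, which binds Wnt ligands, had the largest difference of the 81 pathway genes tested on the log2(RPKM + 1) scale. With a pseudocount of 0.1 the largest was that of Wnt16, at 4.81, followed by Lgr6 at 3.99, with Wif1 at -3.03. Wif1 went from 34.5, 24.5 and 36.5 RPKM to 3.12, 3.82 and 4.49 RPKM (-2.76 ± 0.16, adjusted p = 2.49e-05). Dkk2, an antagonist of the Lrp co-receptors, went from 21.3, 19.2 and 24.8 RPKM to 5.31, 5.63 and 5.46 RPKM (-1.81 ± 0.10, adjusted p = 1.53e-05), a narrow range in KO. Apcdd1 (-1.54, adjusted p = 0.000298), Notum (-1.08, adjusted p = 0.000211) and Sostdc1 (-1.04, adjusted p = 0.00072) fell as well. Notum, at a mean of 0.198 RPKM in KO, reached the limit for testing through the controls alone. Kremen1, a Dickkopf receptor, rose (0.56, adjusted p = 0.000295), as did Frzb (0.38, adjusted p = 0.0193), both named here after their values were seen. The call of Frzb was lost without control B, without KO library A and without KO library B. Sfrp4, the most abundant of the list at 60.8 ± 11.9 and 61.2 ± 20.3 RPKM (SD, n = 3 each), did not pass the test (adjusted p = 0.944).

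Ctnnb1, the gene of beta-catenin (chr9:120929216-120960507), was by far the highest of the 10. It measured 245, 251 and 231 RPKM in the controls and 283, 294 and 300 RPKM in KO, with no overlap. The log2 difference was 0.27 ± 0.07 and stayed between 0.24 and 0.45 under every alternative run. Axin2, a scaffold of the destruction complex that beta-catenin itself switches on (chr11:108920349-108950783), measured 5.71, 4.78 and 5.19 RPKM in the controls and 1.73, 1.58 and 2.06 RPKM in KO. On this scale it was the largest difference of the 10, at -1.16 ± 0.10, with a 2.92-fold lower mean on an estimated 892 to 953 reads per control and 259 to 328 reads per KO library. Within a library the ratio of Axin2 to Ctnnb1 was 0.0190 to 0.0233 in the controls and 0.00536 to 0.00687 in KO.

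In order of level, the control epithelium ran Ctnnb1, Sfrp1, Wnt4, Lgr4, Wnt7b, Dkk3, Axin2, Wnt5a, Wnt10a and Lgr5. In this order the libraries of Sfrp1 and Wnt4 overlapped, as did those of Wnt5a and Wnt10a and those of Wnt10a and Lgr5. In KO the order was the same but for Lgr4 at 28.9 ± 3.00 RPKM above Wnt4 at 24.2 ± 3.19 RPKM (SD, n = 3 each), and the libraries of these 2 genes overlapped, as did those of Axin2 and Wnt5a and those of Wnt10a and Lgr5.

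As a count, 9 of the 10 genes passed the limma threshold in the epithelium, 7 lower and 2 higher in KO, and 9 of 10 had groups that did not overlap. The same contrast chose the genes, so nothing is read from these counts beside the 57.1% called and the 66.7% without overlap over all genes. Their median log2 difference was -0.58. When libraries were scaled to the same sum all 10 kept their direction, with Axin2 at -1.03, Wnt4 at -0.78 and Lgr4 at 0.59.

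Other genes that beta-catenin is known to switch on could be tested, on a list drawn up with earlier results of these data known. Of 15 such targets, 13 were tested, 8 fell and 3 rose, a called share of 84.6% beside 57.1% over all genes. Bmp4, a secreted growth factor, went from 9.06, 5.70 and 8.97 RPKM to 1.13, 1.10 and 1.59 RPKM (-1.95 ± 0.17, adjusted p = 0.000107). Mmp7, a matrix-degrading enzyme and the most abundant of the list, went from 558, 819 and 513 RPKM to 150, 141 and 220 RPKM (-1.88 ± 0.22, adjusted p = 0.000354). The groups did not overlap in either gene.

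Sp5 (-1.31, adjusted p = 6.73e-05) and Nkd1 (-1.28, adjusted p = 0.000106), a transcription factor and a feedback inhibitor that follow the pathway closely in many tissues, also fell. So did the transcription factors Sox9 (-0.89, adjusted p = 0.000969) and Sox4 (-0.73, adjusted p = 0.00131) and the receptor Tnfrsf19 (-0.78, adjusted p = 0.000178). Ephb2, a guidance receptor of intestinal crypts, rose from 2.19 ± 0.496 to 5.76 ± 0.593 RPKM (1.09, adjusted p = 0.000404). Cd44 (0.56, adjusted p = 0.000533) and Ephb3 (0.30, adjusted p = 0.0116), named after their values were seen, rose too. The call of Ephb3 was lost when a trend with gene length was removed. Ccnd1 and Id2 did not pass the test (adjusted p = 0.434 and 0.669), so the list did not move one way.

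**Figure D3:**
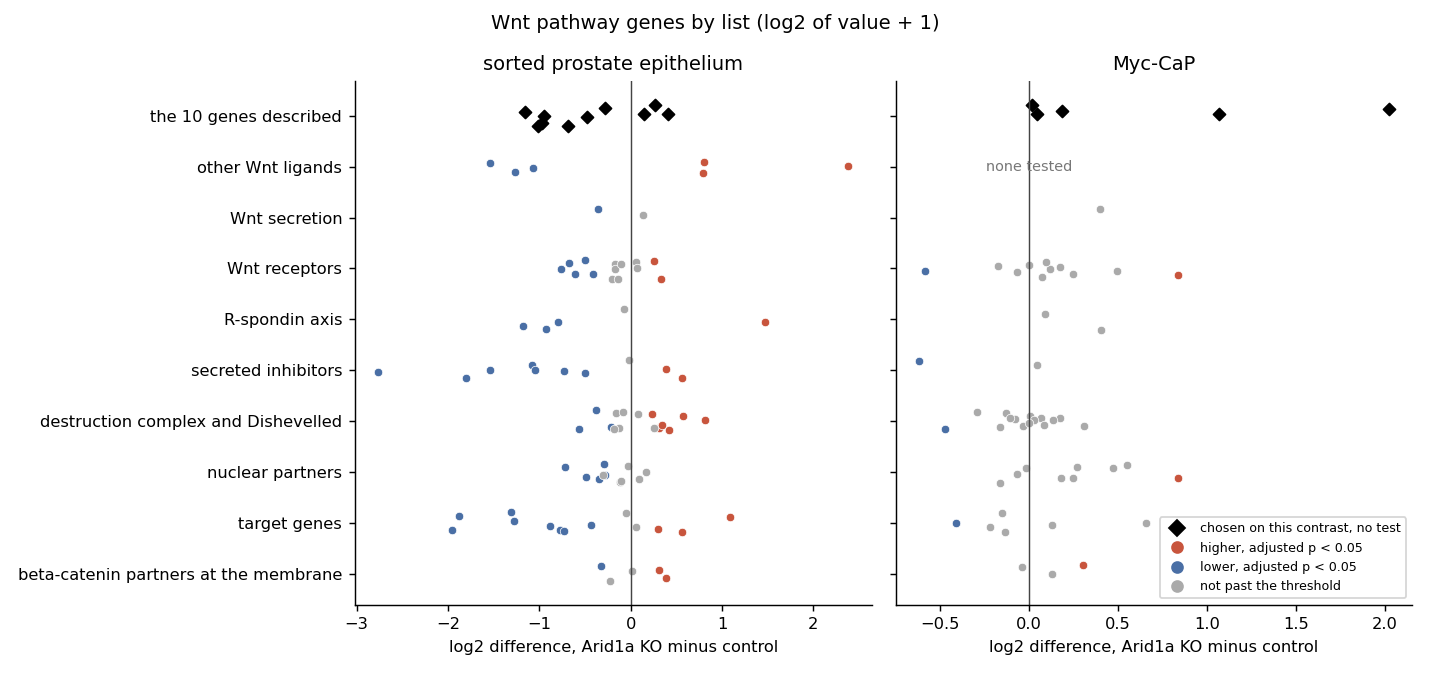
Log2 difference (x axis, KO minus control, log2 of value + 1) of the 10 genes (black diamonds, no test) and of the tested genes of 9 pathway lists (points, red called higher, blue called lower, grey not called by limma) in epithelium (left) and Myc-CaP (right). In epithelium the inhibitors and targets lie mostly left of 0 (7 of 10 and 8 of 13 called lower, beside 29.6% of all genes). In Myc-CaP most points are grey (42 of 49).

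Among nuclear partners, 5 of 11 fell and the other 6 did not pass the test, among them Tle3, the most abundant (0.17, adjusted p = 0.0535). The called share of 45.5% was below the 57.1% over all genes. When libraries were scaled to the same sum 2 of this list were called higher and 2 lower, so its direction rests on the scale. Lef1, itself a target of the pathway, fell from 1.37 ± 0.431 to 0.433 ± 0.158 RPKM (-0.72, adjusted p = 0.00531). Lef1 and Pygo1, another of the 5 that fell, reached the limit for testing through the controls alone. Of 14 receptors tested, 5 fell and 2 rose, a called share of 50% beside 57.1% over all genes. Among the 5, Fzd3 reached the limit for testing through the controls alone. Ror2, a receptor of Wnt5a, fell (-0.76, adjusted p = 0.000119), as did Fzd2 (-0.67, adjusted p = 0.000465) and Fzd8 (-0.61, adjusted p = 0.00219), while Fzd1, the most abundant, did not pass the test (0.06, adjusted p = 0.652). The 2 that rose, named after their values were seen, were Fzd7 (0.33, adjusted p = 0.00318) and Lrp6 (0.26, adjusted p = 0.0347). The call of Lrp6 was lost without control C and without each of KO libraries A, B and C. It was also lost without a filter and with a gene length trend removed, and the difference ranged from 0.02 to 0.42 over the alternatives.

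The destruction complex and Dishevelled list had 6 higher and 3 lower of 15 tested, a called share of 60% beside 57.1% over all genes. It was led by Tnks, a tankyrase that marks Axin for degradation (0.81, adjusted p = 0.000486). Csnk1d, the most abundant gene of the list, was not past the threshold (-0.08, adjusted p = 0.211). With a trend on gene length removed, 4 of this list were higher and 5 lower. Of the 2 genes of Wnt secretion, the acyltransferase Porcn fell (-0.36, adjusted p = 0.00455, named after its values were seen) and the carrier Wls did not pass the test (0.13, adjusted p = 0.117). The 5 tested partners of beta-catenin at the membrane had 2 higher and 1 lower, a called share of 60%, again near that of all genes. Cdh1, E-cadherin, did not pass the test (-0.23, adjusted p = 0.0627).

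Over all 9 lists, 81 of the 102 genes were tested in the epithelium, 19 rose, 36 fell and 26 did not pass, a called share of 67.9% beside 57.1% over all genes. Past a change of 1.5-fold, 6 were higher and 23 lower. The share of all genes past that change was not counted, so nothing is read from this split. Scaled to the same sum, 26 were called higher and 29 lower at any size of change.

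Markers of other cells moved with these differences. Ptprc, the gene of the CD45 used as a negative gate, was at 28.6 ± 2.30 RPKM in the controls and 57.3 ± 0.983 RPKM in KO (SD, n = 3 each), and 6 of 8 leukocyte markers rose, their sum going from 1191 to 1401 RPKM to 2348 to 2943 RPKM. Of 6 fibroblast markers, Dcn (-1.75), Lum (-1.23) and Pdgfra (-0.68) fell while Col1a1, Col1a2 and Col3a1 did not pass the test, and the sum was 1683 to 2456 RPKM in the controls and 1401 to 1971 RPKM in KO. Of 5 smooth muscle markers 4 fell and Acta2 rose, with a sum of 114 to 133 RPKM and 96.0 to 118 RPKM. All 6 seminal vesicle genes fell, from a sum of 18306 to 20707 RPKM to 623 to 1573 RPKM. None of these markers was at 0 in every library. Of all genes tested in the epithelium, 57.1% were called.

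Within the epithelium, all 4 luminal prostate markers fell, from a sum of 238 to 291 RPKM to 23.5 to 41.8 RPKM. The basal keratins Krt5 (1.34) and Krt14 (2.45) rose. Krt15 (-0.37, with every KO library below every control) and Trp63 (-0.24) had lower means in KO and did not pass the test. The sum of 4 basal markers went from 1331 to 1884 RPKM to 2309 to 2584 RPKM, so the list did not move one way. Of the 5 general epithelial markers Epcam (-0.59) and Krt18 (-0.37) fell. The sum was 2686 to 3248 RPKM in the controls and 2529 to 2619 RPKM in KO, so epithelial markers were present in every library. Ptprc was present in every library too, so the RNA did not show the CD45- part of the label. In KO the leukocyte sum of 2348 to 2943 RPKM overlapped the epithelial sum. Of 4 endothelial markers 1 rose and of 4 Schwann and nerve markers 1 fell, with sums over each list of 2.89 to 40.1 RPKM in all libraries. The part that any of these cells had in the Wnt differences was not tested, and in such bulk libraries fewer cells of a type and less RNA per cell cannot be told apart.

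In Myc-CaP the order of the ligands was another. Wnt4 measured 15.4 and 14.1 TPM with EV and 63.8 and 62.4 TPM in KO, a 4.27-fold higher mean and a log2 difference of 2.02 ± 0.07. The libraries of each group lay far closer to each other than to the other group. Wnt5a measured 11.8 and 12.2 TPM with EV and 23.0 and 30.1 TPM in KO, a log2 difference of 1.07 ± 0.14, with the KO libraries further apart. Wnt7b measured 32.3 and 32.6 TPM with EV and 32.4 and 33.2 TPM in KO (0.02 ± 0.06), and the groups overlapped.

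Wnt10a was listed at 0 in both EV libraries and at 0.247 and 0.335 TPM in KO, an estimated 5 and 6 reads. The summed Wnt level was about 61 TPM in both EV libraries and 122 and 128 TPM in KO. Wnt7b was the most abundant ligand with EV, at 53.0% to 53.5% of the sum, and Wnt4 in KO, at 48.9% to 52.3%. The ratio of Wnt4 to Wnt7b went from 0.434 to 0.477 with EV to 1.88 to 1.97 in KO. None of the 15 other ligands reached a mean of 0.5 TPM, so none was tested there.

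**Figure D4:**
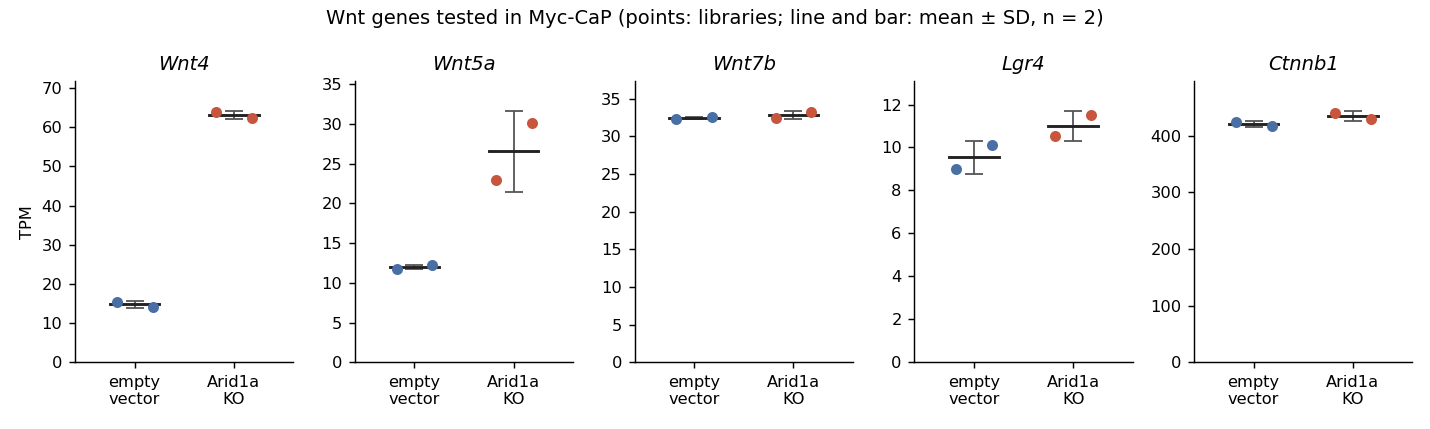
Level in TPM (y axis, from 0, a separate scale per panel) of the 5 genes of the 10 that were tested in Myc-CaP, with 2 empty vector (blue) and 2 Arid1a KO (red) libraries as points, the mean as a line and the SD as a bar. Wnt4 and Wnt5a are higher in KO, while Wnt7b overlaps and Lgr4 and Ctnnb1 differ by little (log2 0.19 and 0.05).

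Lgr4 was at 9.01 and 10.1 TPM with EV and 10.5 and 11.5 TPM in KO (0.19 ± 0.11), and Ctnnb1 at 424 and 417 TPM with EV and 440 and 428 TPM in KO (0.05 ± 0.05). In both the KO libraries lay just above the EV libraries, and 51.5% of all genes had no overlap. The remaining genes of the 10 were at or near 0. Axin2 was listed at 0 but for 0.0249 TPM in EV library 2, about 1 read, and Lgr5 was at 0.0242 and 0.0275 TPM with EV and 0 and 0.0279 TPM in KO, about 2 reads where it was seen. So the canonical readouts Axin2 and Lgr5 gave no comparison in this line, although Ctnnb1 was high.

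Sfrp1 was listed at 0 but for 0.115 TPM in EV library 2, and Dkk3 was seen at 0.147 TPM in EV library 2 and 0.0374 TPM in KO library 2. Those 2 libraries were also the ones with collagen: Col1a1 was at 19.4 TPM in EV library 2 and 7.45 TPM in KO library 2, beside 0.211 and 0.347 TPM in EV and KO library 1. In Myc-CaP 2 of the 5 tested genes were called, both higher, and 5 were not tested; since this contrast chose the genes, nothing is read from that count beside the 6.43% called over all genes.

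Of the other pathway genes 49 were tested in Myc-CaP, 3 rose, 4 fell and 42 did not pass, a called share of 14.3% beside 6.43% over all genes. Lrp5, a Wnt co-receptor, went from 49.2 and 44.9 TPM to 88.3 and 81.5 TPM (0.84 ± 0.08, adjusted p = 0.00869). Tle3, a co-repressor of TCF/LEF, went from 36.0 and 33.5 TPM to 63.7 and 62.0 TPM (0.84 ± 0.07, adjusted p = 0.00636). Apcdd1, a membrane inhibitor of Wnt, went from 106 and 104 TPM to 68.9 and 67.3 TPM (-0.62 ± 0.05, adjusted p = 0.00786) and made up 88.9% to 90.0% of the summed inhibitor level with EV.

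The other calls, named after their values were seen, were smaller. Ctnnd1, p120 catenin, rose (0.31, adjusted p = 0.0423), and Fzd2 (-0.58, adjusted p = 0.041), the kinase Csnk1e (-0.47, adjusted p = 0.0231) and Id2, the most abundant of the targets (-0.41, adjusted p = 0.0262), fell. The most abundant genes of the remaining lists did not pass the test, among them Porcn (0.40, adjusted p = 0.0611), Znrf3 (0.09, adjusted p = 0.603), Csnk1d (0.00, adjusted p = 0.998), Tcf7l1 (0.27, adjusted p = 0.0952) and Ctnna1 (-0.04, adjusted p = 0.721). Each of the 7 calls rested on all 4 libraries. Without any 1 of them limma called 0 of the tested pathway genes, with 10 to 12 of these at an unadjusted p under 0.05, and a lone library then stood for a group. The sizes moved little over all alternatives, from 0.78 to 0.90 for Lrp5, from 0.79 to 0.89 for Tle3 and from -0.64 to -0.60 for Apcdd1.

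The defining markers of epithelium were near 0 in Myc-CaP, with Epcam at 0 in 3 of 4 libraries and Cdh1 at 0.386 TPM at most. The keratin gene Krt8 was at 0.932 ± 0.201 TPM with EV and rose to 39.6 ± 1.02 TPM in KO (SD over 2 libraries each, limma adjusted p = 0.00135). Of the basal markers Krt15 rose (1.46, adjusted p = 0.0273), and it reached the limit for testing through KO alone. Leukocyte, endothelial and seminal vesicle markers were below the limit for testing, with summed levels of 1.36 TPM at most. The tested fibroblast, smooth muscle and Schwann markers did not pass (adjusted p from 0.163, Pdgfra, upwards), and the fibroblast sum ranged from 7.07 to 37.3 TPM with EV and from 5.89 to 16.5 TPM in KO.

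Between the systems, Wnt4 and Wnt5a were lower in KO epithelium and higher in Myc-CaP KO, in every library in both cases. Groups without overlap made up 66.7% of all genes in epithelium and 51.5% in Myc-CaP. Axin2, Lgr5, Sfrp1 and Dkk3 were measured in the epithelium and stood near 0 in the line. The tables were scaled separately, the line and the mice differ in their engineered background, and the difference between the systems was not tested.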

How the data were processed

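The authors deposited RPKM per gene for the sorted epithelium and TPM per gene for Myc-CaP. Per the study's methods, paired-end reads were aligned to GRCm38 with TopHat2 and counted with HTSeq-count, whereas the submitters' processing notes name HISAT2, HTSeq and DESeq2 with mm10. The gene lengths behind either unit are not given in the sources used here. Per-sample and series tables were compared in 10 files, and 0 values differed.

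Values were taken as log2(value + 1), a mean of 0.5 was the minimum for testing, and each table was fitted alone with limma 3.58.1 in R 4.3.3 (lmFit, eBayes with trend, 2 groups, no covariate), two-sided, with Benjamini-Hochberg adjustment over all its genes. The script was tested on simulated data. Rescaling, quantile normalization, a gene length trend, other filters and pseudocounts and leaving out each library were the alternatives. Positions, and lengths for read estimates, came from GENCODE M21. With 3 against 3 libraries an exact permutation test cannot go below 0.1.

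The 10 genes, the 9 pathway lists and the marker lists were chosen with earlier results of these data known. Named pathway genes were those called past 1.5-fold without overlap, plus the most abundant of each list, with every library for the 5 largest differences. The gene deleted in all 6 epithelium libraries and 1 marker gene are not reported here.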

Additional observations from a re-analysis of the deposited data

Results flagged for a closer look

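Wnt4 and Wnt5a differed in opposite directions in the 2 systems. For Wnt4 the log2 difference between KO and control was -0.95 in epithelium (lower in 3 of 3 KO libraries) and 2.02 in Myc-CaP (higher in 2 of 2). For Wnt5a it was -0.69 in epithelium and 1.07 in Myc-CaP, again in every library. Over all genes, groups did not overlap in 66.7% in epithelium and 51.5% in Myc-CaP, and these contrasts chose both genes. Opposite directions without overlap were also seen for Porcn, Fzd6, Ryk, Btrc, Tcf7, Tcf7l1, Tle1, Cd44, Sox9 and Ephb3, none of them called in Myc-CaP. The difference between the systems was not tested, because the tables were scaled separately and differ in unit.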

How the results depend on the processing

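In the epithelium, 128 of the 136 values of the 10 genes under the alternatives kept their side of the threshold, and in Myc-CaP 54 of 60. Among these, Sfrp1 changed sign without control B (-0.06) and Myc-CaP Wnt7b under quantile normalization (-0.01), neither of them called. The other 8 in epithelium were Wnt7b (between -0.28 and -0.12) and Ctnnb1 without control C (0.24). The other 6 in Myc-CaP were Wnt5a (between 0.88 and 1.26), and each kept its direction. The call of Wnt7b was lost without a filter, when scaled to the same sum, with the replicate letter as a block, and without control A, control B, KO library A or KO library B. That of Wnt5a was lost without a filter, without the variance trend and without any 1 library. The cause was not tested. The same contrast chose the 10 genes, so these runs show only how calls depend on processing.

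With a minimum mean of 5, fewer genes were tested and 5872 epithelium genes and 33 pathway genes were called, against 9294 and 55. In Myc-CaP, where 899 genes and 7 pathway genes were called, no filter gave 358 and 3, and a fit without the variance trend 451 and 3. Leaving out 1 library gave 47 to 76 genes and 0 to 0 pathway genes.

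Replicate labels did not pair the epithelium libraries (correlations of deviations 0.041, 0.009 and -0.057), and the block there gave 8823 genes and 56 pathway genes. In Myc-CaP the correlation was 0.194 over only 2 pairs, and the replicate block gave 2771 genes and 15 pathway genes. Counts were not at hand, and by estimate Wnt10a, Lgr5, Axin2, Sfrp1 and Dkk3 had 6 reads or fewer per library in Myc-CaP. Ctnnb1 had an estimated 16761 to 19373 reads in the EV libraries. Whether depth or low expression lay behind the low values was not tested.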
